A study of Mus musculus with 9 samples.

Results

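Fatty acid and triglyceride metabolism was examined through 42 genes, out of 55487 gene identifiers counted in each library. They are the listed genes of fatty acid synthesis, desaturation, elongation, activation, oxidation and uptake, of lipid droplets and lipolysis, the lipins, Bdh1 and Liph. All 42 symbols matched 1 mouse Ensembl gene each. The choice was by function, but it was made when earlier results of these data were known. Bdh1 and Liph are also on a list of changed genes that the study drew from these libraries. RNA was sequenced from unstimulated RAW264.7 cells, a mouse macrophage line. The 9 libraries were 3 of wild-type cells, 3 of C/EBPδ knock-out cells and 3 of C/EBPδ TAD mutant (ΔTAD) cells. Both edited genotypes were made with combinations of CRISPR/Cas9 guides on either side of the transactivation domain, followed by sorting and puromycin selection of single cells. ΔTAD clones lost this domain in frame, and clones in which the deletion was out of frame served as knock-out, so each edited line descends from a single cell. The submitters describe independent clones. Which library came from which clone is not given for each library, and libraries of a genotype may share a clone. The p-values therefore measure the spread between these libraries, which may not be a spread between clones.

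Macrophages take up, build, store and burn fatty acids. New fatty acids are made in the cytosol from citrate through acetyl-CoA and malonyl-CoA, then desaturated and elongated, and SREBP-1, the product of Srebf1, is a known activator of these genes. For triglyceride storage, an activated fatty acid is joined to glycerol 3-phosphate by Gpam, a second one is added by an Agpat enzyme, a lipin removes the phosphate, and Dgat1 or Dgat2 adds the last fatty acid. Lipases release the fatty acids again, in the cytosol or in the lysosome, and carnitine palmitoyltransferases carry them into mitochondria for oxidation. C/EBPδ, encoded by Cebpd, is a transcription factor of the bZIP family that is known for its part in adipocyte differentiation and in the macrophage response to endotoxin.

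Libraries held 16113306 to 20981829 counts on genes. Cebpd RNA was at 6.51 ± 0.674 CPM (depth-scaled counts by TMM, SD, n = 3) in wild-type, 5.44 ± 0.201 in knock-out cells and 5.44 ± 0.669 in ΔTAD cells, so the RNA level of the edited gene does not check the labels. All 8 macrophage markers were detected, with a summed level of 2616 to 2764 CPM in wild-type, 3629 to 3980 CPM in knock-out and 6009 to 6163 CPM in ΔTAD libraries. Most of the difference in this sum came from the lysozyme gene Lyz2, at 1167 ± 61.9 CPM in wild-type, 2114 ± 146 in knock-out cells and 4192 ± 76.4 in ΔTAD cells. Like Lyz2, the markers Adgre1, Spi1, Cd68 and Ptprc were called higher in both edited genotypes. Csf1r was called higher in ΔTAD macrophages alone (0.20 on the log2 scale). Log2 values, knock-out first, were 1.45 and 1.71 for Adgre1 and 0.29 and 0.79 for Spi1. They were smaller for Cd68 (0.14 and 0.24) and Ptprc (0.15 and 0.28). The markers did not all move together. Fcgr1 was lower in both edited genotypes (log2 fold changes of -1.14 and -0.44), and Itgam was not called in either (-0.16 and -0.14). The part of the markers in the lipid gene results was not tested. The 6 adipocyte, 6 hepatocyte, 6 fibroblast, 4 B cell and 4 epithelial markers had at most 3 counts in any library, and the 5 T cell markers at most 6. ΔTAD replicate 1 stood apart from the other ΔTAD libraries. The ribosomal RNA locus CT010467.1 took 11.0% of its counts, compared to 0.303% to 1.17% in the others. Calls of members that change without this library are given with that value.

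The most strongly changed members were Lpin3, Bdh1 and Liph, which were close to 0 in knock-out macrophages. Lpin3 was also low in ΔTAD macrophages, whereas Bdh1 and Liph were higher in ΔTAD than in wild-type macrophages. Fabp4 and Dgat2 were lower, and Lipa was higher, in both edited genotypes. The plot of levels by library shows these genes beside the other lipins. Changes in the remaining tested members were smaller than 2-fold.

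**Figure D1:**
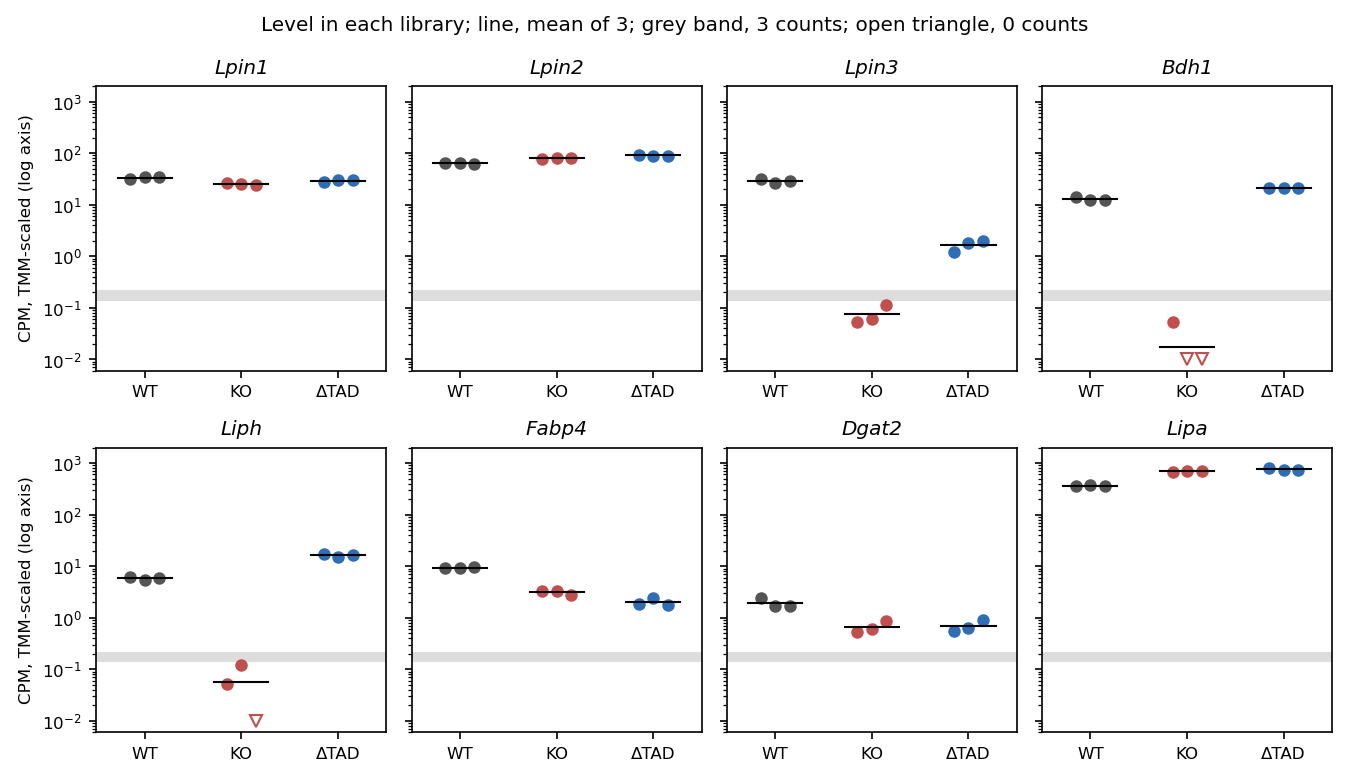
CPM of 8 genes on a log axis in each library of wild-type (WT), knock-out (KO) and ΔTAD macrophages, with a line at the mean of 3 libraries, a grey band at the level of 3 counts and open triangles for 0 counts. Lpin3, Bdh1 and Liph lie below the band in every knock-out library, and Lpin3 lies between 1.19 and 1.95 CPM in ΔTAD macrophages.

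Lpin3 encodes a phosphatidate phosphatase, which makes the diacylglycerol used for triglycerides. Its level was 32.1, 26.7 and 28.8 CPM in the 3 wild-type libraries, 0.0527, 0.0604 and 0.113 CPM in the knock-out libraries and 1.19, 1.78 and 1.95 CPM in the ΔTAD libraries. The 3 genotypes did not overlap. The knock-out libraries held 4 counts in all, the wild-type libraries 1581 and the ΔTAD libraries 95. Scaled to depth, the wild-type level was 390 times that of knock-out (95% counting interval 152 to 1434) and 17.3 times that of ΔTAD macrophages (14.1 to 21.6). The ΔTAD level was in turn 22.5 times the knock-out level (8.50 to 84.2). Intervals of this kind cover counting error alone. By edgeR's quasi-likelihood F test with Benjamini-Hochberg correction, Lpin3 was lower in knock-out (adjusted p = 3.65e-20) and in ΔTAD macrophages (adjusted p = 6.15e-19) than in wild-type, and lower in knock-out than in ΔTAD macrophages (adjusted p = 4.69e-08).

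Lpin1 and Lpin2 encode the other phosphatidate phosphatases of the family, and both stayed well expressed. Lpin1 was at 31.0, 34.0 and 34.2 CPM in wild-type, 25.8, 25.5 and 23.9 CPM in knock-out and 27.4, 29.6 and 30.6 CPM in ΔTAD libraries. It was lower in knock-out than in wild-type macrophages (log2 fold change -0.40 ± 0.064, SE), and in ΔTAD macrophages the difference of -0.17 was not called. It was called with library size alone (-0.26), with library size without CT010467.1 (-0.20) and without wild-type replicate 1 (-0.22). Lpin2 was at 63.4, 63.9 and 61.6 CPM in wild-type, 78.5, 78.9 and 82.1 CPM in knock-out and 93.4, 89.7 and 88.5 CPM in ΔTAD libraries. It was higher in both edited genotypes, by 0.34 ± 0.036 in knock-out cells and 0.52 ± 0.035 in ΔTAD cells on the log2 scale. Between the edited genotypes, Lpin2 was called lower in knock-out (-0.18). This call was lost with library size alone (-0.11) and without ΔTAD replicate 1 (-0.13). Lpin1 lies on chromosome 12 and Lpin2 on chromosome 17, where most genes shifted with them, as described further on.

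Per kilobase of exon, Lpin3 was the most abundant lipin in wild-type macrophages, at 7.91 ± 0.734 CPM per kb (SD, n = 3). Lpin2 was at 5.15 ± 0.0990 and Lpin1 at 3.42 ± 0.187. This order depends on the length used, which was that of all annotated exons of a gene merged. It was 3694 bases for Lpin3, 12233 for Lpin2 and 9665 for Lpin1, and single transcripts may be shorter. In CPM without this scaling, Lpin2 was the highest of the 3 in every wild-type library. The share of Lpin3 in the lipin sum was 47.9% for wild-type, 0.223% for knock-out and 4.08% for ΔTAD cells. The sum of all 3 lipins was 16.5 ± 0.556 CPM per kb in wild-type, 9.14 ± 0.0673 in knock-out cells and 10.9 ± 0.0654 in ΔTAD cells. The groups did not overlap, since the sum was 16.0 to 17.1 in wild-type, 9.10 to 9.22 in knock-out and 10.8 to 10.9 in ΔTAD libraries. Lpin2 was higher and Lpin3 lower in both edited genotypes. These shares and sums rest on the merged exon lengths, describe the 3 genes and were not tested.

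Bdh1 encodes the mitochondrial 3-hydroxybutyrate dehydrogenase, which interconverts the ketone bodies 3-hydroxybutyrate and acetoacetate. It was at 14.4, 12.4 and 12.2 CPM in wild-type, 0.0527, 0 and 0 CPM in knock-out and 20.8, 20.7 and 21.0 CPM in ΔTAD libraries. The knock-out libraries held 1 count in all. The wild-type level was 694 times the knock-out level, with a wide 95% counting interval of 124 to 27451. Every ΔTAD library was above every wild-type library, and the difference was 0.68 ± 0.082 on the log2 scale. By edgeR's quasi-likelihood F test with Benjamini-Hochberg correction, adjusted p was 5.07e-18 for knock-out and 1.05e-07 for ΔTAD macrophages compared to wild-type. Of the 50-base stretches of Bdh1 exons, 11.1% also occur in the antisense gene Gm15743. The strand setting of the counting is not given in the sources used here, so reads in that overlap cannot be assigned to a strand.

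Liph encodes a membrane-bound phospholipase that releases lysophosphatidic acid from phosphatidic acid. It was at 6.08, 5.32 and 5.99 CPM in wild-type, 0.0527, 0.121 and 0 CPM in knock-out and 17.3, 15.4 and 16.1 CPM in ΔTAD libraries. The knock-out libraries held 3 counts in all, and the knock-out level was 0.00971 times the wild-type level (95% counting interval 0.00199 to 0.0286). ΔTAD macrophages had 2.78 times the wild-type level (2.44 to 3.17), a log2 fold change of 1.48 ± 0.10. The groups did not overlap. By edgeR's quasi-likelihood F test with Benjamini-Hochberg correction, adjusted p was 1.59e-14 for knock-out and 6.36e-12 for ΔTAD macrophages compared to wild-type.

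For both genes the edited genotypes were also compared directly. The ΔTAD level was 1110 times the knock-out level for Bdh1 (95% counting interval 199 to 43879) and 286 times for Liph (97.6 to 1390). Both genes are on the study's own list of genes that were lowered in knock-out and raised in ΔTAD macrophages, which was drawn from these libraries, so their opposite directions are not independent evidence of that list. Bdh1 and Liph lie on chromosome 16, as does Cebpd, at 15.5 Mb and 6.06 Mb from it. The 116 and 79 tested genes between had median log2 fold changes of -0.02 and -0.02 in knock-out and 0.01 and 0.06 in ΔTAD macrophages.

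The sequences before the RefSeq transcription start of strongly changed members are shown because C/EBP factors bind DNA and the study is about C/EBPδ. They are RefSeq sequences of GRCm38.p6, written 5′ to 3′ on the strand of the gene. Capitals mark the letters CCAAT, the box after which the C/EBP family was named and which the factor NF-Y binds, or TTGCNNAA, the letters of a C/EBP motif, on either strand. Lpin3 is shown at chr2:160880420-160880669, Bdh1 at chr16:31422047-31422279, both on the plus strand, and Lipa at chr19:34527475-34527724 on the minus strand. Liph is shown only for the 30 bases around its matches, at chr16:21995583-21995612 on the minus strand. These bases lie before the RefSeq start but inside the GENCODE gene, which covers 121 bases of the Liph window.
Lpin3: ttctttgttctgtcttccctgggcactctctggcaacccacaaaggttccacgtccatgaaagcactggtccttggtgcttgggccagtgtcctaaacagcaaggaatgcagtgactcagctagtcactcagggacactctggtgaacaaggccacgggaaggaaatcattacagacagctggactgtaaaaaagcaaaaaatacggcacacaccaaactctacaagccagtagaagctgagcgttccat
Bdh1: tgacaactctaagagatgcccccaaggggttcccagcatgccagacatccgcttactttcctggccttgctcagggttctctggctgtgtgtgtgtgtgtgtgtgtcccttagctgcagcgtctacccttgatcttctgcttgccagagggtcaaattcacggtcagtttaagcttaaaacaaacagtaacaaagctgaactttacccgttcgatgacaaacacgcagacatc
Lipa: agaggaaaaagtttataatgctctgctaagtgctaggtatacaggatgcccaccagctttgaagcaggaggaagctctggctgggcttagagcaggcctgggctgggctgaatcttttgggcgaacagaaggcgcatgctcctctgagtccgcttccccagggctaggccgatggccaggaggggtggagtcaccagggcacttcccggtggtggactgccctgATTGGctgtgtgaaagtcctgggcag
Liph: acatatgcaCCAATTGTGCAAgcagaaagt

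Liph holds CCAAT 61 bases before its RefSeq start, and TTGCNNAA 57 bases before it on the other strand, so that the matches overlap. Lipa holds CCAAT 26 bases before its start, on the strand opposite to the gene. In the 250 bases before the starts of Lpin3 and Bdh1, neither motif was found, which says only that these letters are not in this window. Of the 42 genes, 33 had a RefSeq window, 45 windows in all. The windows of Scd1, Scd2, Fads1, Ppargc1b, Lpl, Fabp4, Fabp5, Dgat1 and Dgat2 were not used here. CCAAT was in 40% of the members' windows and in 33.8% of all 32851 windows. TTGCNNAA was in 8.89% and 9.56%, respectively, and among the members in Agpat3, Liph, Lpin2 and Pparg. Another motif, TCACNCCAC, which SREBP binds, was in 1.05% of all windows and among the members in Acsl1. Fasn held CCAAT 3 times.

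Fabp4 and Dgat2 had low levels that fell further in both edited genotypes. Fabp4 encodes the fatty acid binding protein of adipocytes and macrophages. It was at 9.07, 9.26 and 9.63 CPM in wild-type, 3.32, 3.26 and 2.72 CPM in knock-out and 1.89, 2.40 and 1.81 CPM in ΔTAD libraries. All edited libraries lay below all wild-type libraries, and log2 fold changes were -1.58 ± 0.13 in knock-out cells and -2.18 ± 0.14 in ΔTAD cells. Between the edited genotypes Fabp4 was 0.60 ± 0.17 higher in knock-out on the log2 scale, and this call was lost without ΔTAD replicate 1 (0.59, adjusted p = 0.0148 by edgeR's quasi-likelihood F test, Benjamini-Hochberg adjusted). Dgat2, which catalyses the last step of triglyceride synthesis, was at 2.39, 1.68 and 1.70 CPM in wild-type, 0.527, 0.604 and 0.850 CPM in knock-out and 0.560, 0.624 and 0.904 CPM in ΔTAD libraries. Log2 fold changes were -1.55 ± 0.29 and -1.44 ± 0.28, and the edited genotypes overlapped.

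Lipa encodes the lysosomal acid lipase, which splits triglycerides and cholesteryl esters delivered to lysosomes. It was at 358, 369 and 360 CPM in wild-type, 681, 686 and 710 CPM in knock-out and 814, 748 and 723 CPM in ΔTAD libraries. Every edited library exceeded every wild-type library, by 0.93 ± 0.038 in knock-out cells and 1.07 ± 0.038 in ΔTAD cells on the log2 scale. Adjusted p was 1.95e-16 and 1.05e-17 by edgeR's quasi-likelihood F test, Benjamini-Hochberg adjusted. The further difference between the edited genotypes, -0.14 for knock-out against ΔTAD macrophages, was no longer called without ΔTAD replicate 1 (-0.06).

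Over the whole set, 40 of 42 genes had enough counts to be tested. Genes were called at an adjusted p under 0.01, the threshold of the study. The study used the R2 platform and reported fewer changed genes, so its calls and those given here are different sets. Compared to wild-type, 15 members were higher and 10 lower in knock-out macrophages, and 26 were higher and 8 lower in ΔTAD macrophages. Between the edited genotypes, 6 members were higher and 24 lower in knock-out than in ΔTAD macrophages. Lpin3, Bdh1 and Liph passed the filter on low counts through the groups in which they are high, so their difference is not independent of that filter.

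Many genes changed in this experiment. Of the 14312 genes tested, 45.2% were called in knock-out compared to wild-type macrophages, 22.8% higher and 22.4% lower. In ΔTAD macrophages 49.7% were called, 26.3% higher and 23.4% lower. Between knock-out and ΔTAD macrophages 33.0% were called, 13.9% higher and 19.1% lower. Beside these shares, 37.5% of the tested members were higher and 25% lower in knock-out, and 65% were higher and 20% lower in ΔTAD macrophages. In knock-out against ΔTAD macrophages 15% were higher and 60% lower. The comparisons with wild-type share the wild-type libraries.

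The differences were small. The median log2 fold change of the tested members was 0.07 in knock-out cells and 0.25 in ΔTAD cells compared to wild-type, and -0.17 in knock-out against ΔTAD macrophages. Over all tested genes the medians were -0.00105, -0.00332 and -0.03. Libraries of the genotypes did not overlap for 28, 39 and 35 of the 40 members in the 3 comparisons, and for 59.7%, 63.1% and 52.8% of all tested genes. Members are more highly expressed than most genes, and high counts make small differences easier to call. Among the 34 members with a mean of at least 20 CPM, 70.6% were higher and 14.7% lower in ΔTAD than in wild-type macrophages, compared to 35.4% and 27.0% of the 7457 genes at such levels. In knock-out against ΔTAD macrophages, 14.7% of these members were higher and 61.8% lower, compared to 15.4% and 28.6%. In knock-out compared to wild-type, 44.1% were higher and 14.7% lower, beside 29.7% and 29.5%. Libraries did not overlap for 67.6%, 100% and 91.2% of these 34 members in the 3 comparisons. Among all genes at such levels the shares were 71.6%, 72.8% and 62.5%, so in knock-out compared to wild-type the members did not exceed them.

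The counts between ΔTAD and the other genotypes depended on the scaling of libraries. With library size alone, 18 members were higher and 11 lower in ΔTAD than in wild-type macrophages, and 6 were higher and 9 lower in knock-out than in ΔTAD macrophages. The share of higher genes among all called genes then moved from 52.9% to 39.6% and from 42.1% to 69.0%. When the counts on CT010467.1 were taken out of the library size, 24 members were higher and 10 lower, and 6 higher and 21 lower. Without ΔTAD replicate 1 and with TMM, 24 were higher and 8 lower than in wild-type, and knock-out had 5 higher and 21 lower than ΔTAD macrophages.

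**Figure D2:**
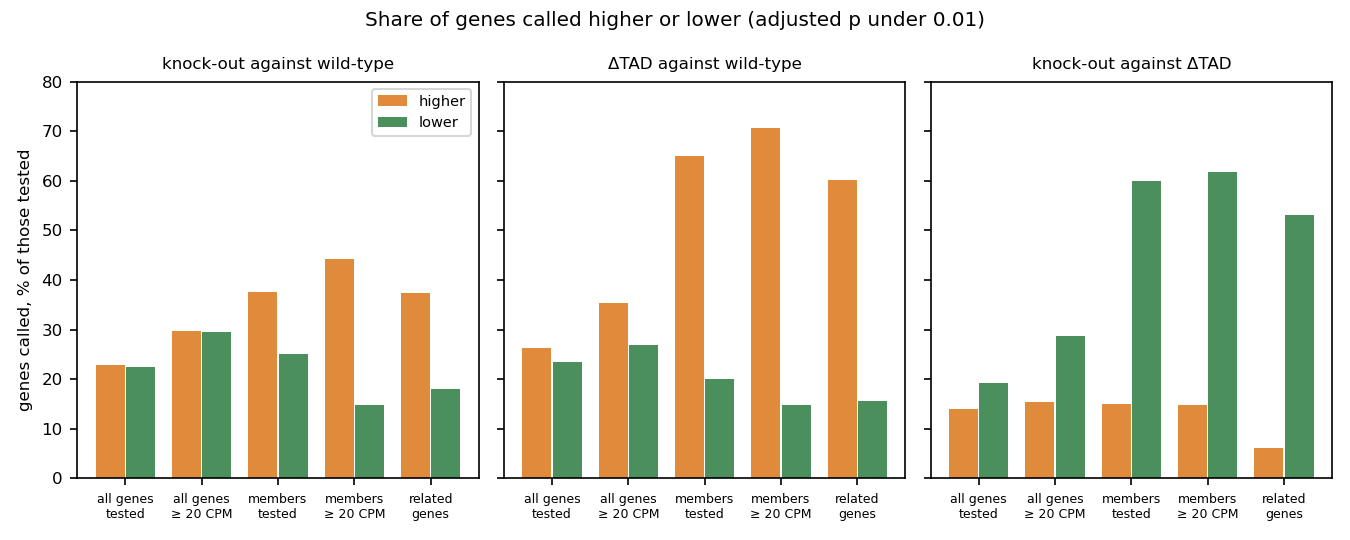
Percent of tested genes called higher (orange) or lower (green) at an adjusted p under 0.01 in each comparison, for all genes, genes at a mean of at least 20 CPM, members, members at such levels and 83 related genes. In ΔTAD against wild-type macrophages the members reach 65% higher and 20% lower, and all genes 26.3% and 23.4%.

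Within the groups of function, regulators moved unequally. Srebf1 rose from 115 ± 5.31 CPM in wild-type to 142 ± 6.90 in knock-out cells and 159 ± 0.795 in ΔTAD cells (SD, n = 3). Ppard, a nuclear receptor for fatty acids, was 0.67 higher in knock-out on the log2 scale. Its difference of 0.20 in ΔTAD macrophages was called, but the call was lost in 11 alternatives, among them DESeq2 (0.19) and leaving out ΔTAD replicate 1 (0.20, adjusted p = 0.0104 by edgeR's quasi-likelihood F test, Benjamini-Hochberg adjusted). Ppargc1b, a coactivator of mitochondrial genes, was lower in ΔTAD macrophages (-0.29) and differed by -0.07 in knock-out, which was not called. Pparg, the nuclear receptor that drives adipocyte genes, was not tested, with at most 0.350 CPM in any library.

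Of the 3 genes of fatty acid synthesis, Fasn and Acaca were lower in both edited genotypes than in wild-type. Fasn, which builds palmitate, was at 949 ± 26.5 CPM in wild-type, 687 ± 35.5 in knock-out cells and 783 ± 15.9 in ΔTAD cells. Its libraries did not overlap between genotypes, and log2 fold changes were -0.47 and -0.28. Acaca, whose product makes malonyl-CoA, had log2 fold changes of -0.18 and -0.17, but 30.4% of its 50-base stretches occur in other genes. Acly, which supplies acetyl-CoA, differed by -0.05 and 0.07 and was not called in either. It was called lower in knock-out than in ΔTAD macrophages (-0.11). That call was lost in 13 alternatives, among them leaving out ΔTAD replicate 1 (-0.08).

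All 4 desaturases were higher in ΔTAD than in wild-type macrophages and lower in knock-out than in ΔTAD macrophages. Fads1 and Fads2, which desaturate polyunsaturated fatty acids, were higher in knock-out as well. Of all tested genes, 26.3% were higher in ΔTAD than in wild-type macrophages, and 19.1% were lower in knock-out than in ΔTAD macrophages. On the log2 scale Fads1 was higher by 0.60 in knock-out cells and 0.75 in ΔTAD cells, and Fads2 by 0.39 and 0.62. Scd2, a stearoyl-CoA desaturase and the most abundant member per length with 343 CPM per kb in wild-type, was at 1874 ± 27.3 CPM in wild-type, 1806 ± 31.7 in knock-out cells and 2498 ± 69.9 in ΔTAD cells. It was called in ΔTAD macrophages (0.42) and not in knock-out (-0.05), and the edited genotypes differed by -0.47. Scd1 showed 0.06 and 0.22 and was called in ΔTAD macrophages. With library size alone, the call of Scd1 in ΔTAD macrophages was lost (0.13), as were those of Scd1, Fads1 and Fads2 between the edited genotypes.

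The 3 elongases differed among themselves. Elovl6, which extends palmitate, was lower in knock-out (-0.26) and ΔTAD macrophages (-0.18), as was Fasn. Elovl5, which extends polyunsaturated fatty acids, was higher in both (0.13 and 0.20), with both calls lost when library size alone was used. Its knock-out call was also lost without knock-out replicate 3 or wild-type replicate 1 (0.12 in each). Elovl1, which makes very long saturated chains, was higher in ΔTAD macrophages (0.38) and not called in knock-out (0.10), but was called there without knock-out replicate 2 or wild-type replicate 1 (0.14 in each).

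The 4 acyl-CoA synthetases, which activate fatty acids, each had a different pattern. Acsl3 was higher in both edited genotypes (0.45 in knock-out, 0.38 in ΔTAD macrophages). Acsl1 was higher in ΔTAD macrophages (0.36) and not called in knock-out (-0.05), although 9.23% of its 50-base stretches are shared, mostly with the overlapping gene Gm45244. Acsl4, which prefers arachidonic acid, was lower in ΔTAD macrophages (-0.30) and not called in knock-out (-0.06). Acsl5 was lower in knock-out (-0.30), and its difference of -0.11 in ΔTAD macrophages was not called with edgeR and TMM. That difference was called by DESeq2 (-0.12), with library size alone (-0.20) and with library size without CT010467.1 (-0.14).

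Mitochondrial oxidation held 7 tested genes, of which 6 were higher in ΔTAD and 4 in knock-out than in wild-type macrophages, while the others were not called. With library size alone, the calls of Cpt2 and Acadvl in ΔTAD and of Hadha in knock-out cells were lost. That of Cpt2 was also lost without wild-type replicate 3 (0.24). Cpt1a, the rate-limiting carrier of fatty acids into mitochondria, was at 28.2 ± 1.34 CPM in wild-type, 34.8 ± 2.16 in knock-out cells and 48.1 ± 2.11 in ΔTAD cells, with no overlap between genotypes. Acadm, the dehydrogenase of medium chains, was higher by 0.48 and 0.69, and Acadl, that of long chains, by 0.41 in both. Hadha, a subunit of the trifunctional protein, was higher by 0.12 in knock-out cells and by 0.30 in ΔTAD cells, and the knock-out call was lost in 9 alternatives. Cpt2 and Acadvl were called in ΔTAD macrophages (0.30 and 0.26) and not in knock-out (0.10 and 0.10). Acadvl shares 26.9% of its 50-base stretches with Dvl2. Hadhb, the other subunit, differed by -0.10 and 0.03 and was not called, and 19.7% of its stretches are shared with other genes.

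Of the genes of uptake and binding, Lpl moved opposite to Fabp4. Lpl encodes the lipase that frees fatty acids from lipoproteins, and it was the second most abundant member per length in each genotype. It was at 1478 ± 45.6 CPM in wild-type, 2127 ± 67.5 in knock-out cells and 1913 ± 18.6 in ΔTAD cells, with no overlap. Fabp5, the neighbouring gene and relative of Fabp4, was higher by 0.16 in knock-out cells and 0.45 in ΔTAD cells. The knock-out call of Fabp5 was lost in 4 alternatives. Among them were library size alone (0.15) and leaving out knock-out replicate 1 (0.09) or wild-type replicate 3 (0.12). Of the 50-base stretches of Fabp5, 5.48% are shared.

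In triglyceride synthesis apart from the lipins and Dgat2, differences were small. Gpam, which starts the pathway, differed by -0.03 in knock-out and was 0.17 higher in ΔTAD macrophages, a call that was lost in 7 alternatives, among them leaving out ΔTAD replicate 1 (0.15, adjusted p = 0.0159 by edgeR's quasi-likelihood F test, Benjamini-Hochberg adjusted). Agpat3 was 0.24 higher in ΔTAD macrophages, a call that was lost with library size alone (0.15), and not called in knock-out (0.06). Dgat1, at 10.5 ± 1.03 CPM in wild-type, 11.3 ± 0.548 in knock-out cells and 11.8 ± 0.593 in ΔTAD cells, was not called in any comparison. Dgat1 was thus expressed above Dgat2 per length in wild-type macrophages, at 3.43 compared to 0.624 CPM per kb.

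The coat proteins of lipid droplets differed between the edited genotypes in opposite directions. Plin2 was 0.22 higher in ΔTAD than in wild-type macrophages on the log2 scale, and its difference of -0.01 in knock-out was not called. Plin2 had a log2 fold change of -0.23 in knock-out against ΔTAD macrophages, and with library size alone both calls were lost. Plin3 was at 34.5 ± 1.06 CPM in wild-type, 54.7 ± 4.80 in knock-out cells and 30.8 ± 1.12 in ΔTAD cells. Plin3 was 0.67 higher in knock-out than in wild-type and 0.82 higher than in ΔTAD macrophages on the log2 scale, the highest value among the members in the last comparison. Its ΔTAD value of -0.16 against wild-type was called with library size alone (-0.24).

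Among the lipases, Pnpla2, the cytosolic triglyceride lipase, was at 27.4 ± 2.44 CPM in wild-type, 29.0 ± 0.505 in knock-out cells and 42.7 ± 1.75 in ΔTAD cells. It was called in ΔTAD macrophages (0.64) and in knock-out against ΔTAD macrophages (-0.56). Its difference between knock-out and wild-type macrophages (0.08) was not called. Mgll, the monoglyceride lipase, was not tested, since no library held more than 1 count of it.

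**Figure D3:**
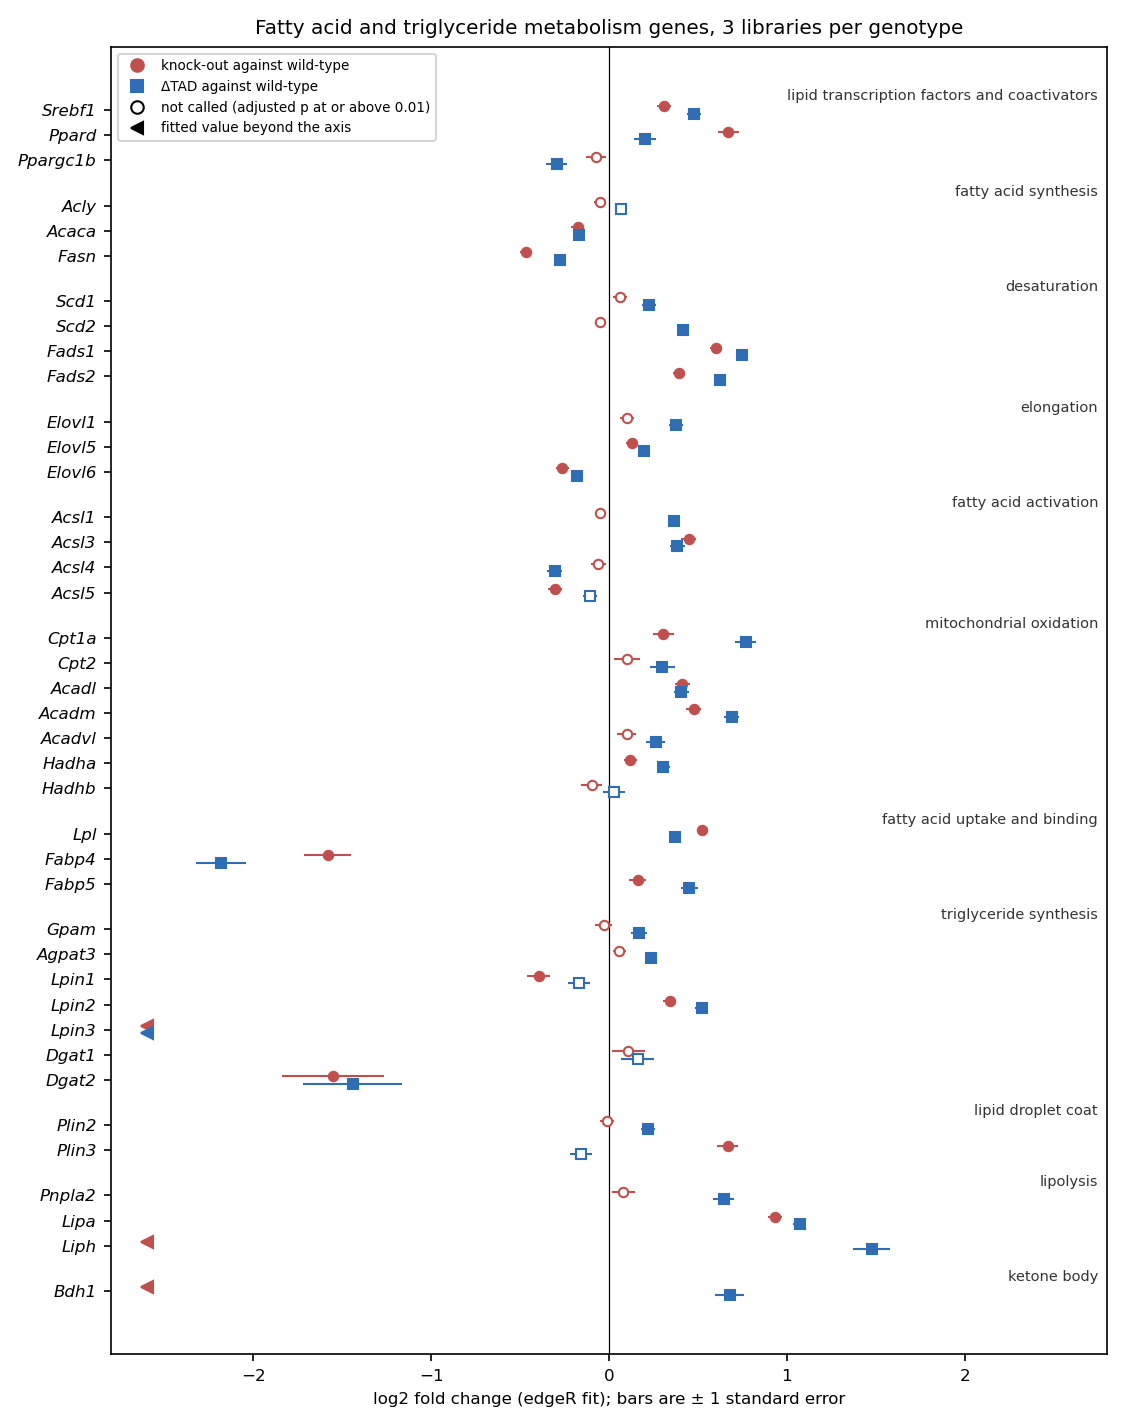
Log2 fold change with 1 standard error of the 40 tested members by function, for knock-out (red circles) and ΔTAD (blue squares) against wild-type macrophages, with open symbols for genes not called and triangles for fitted values beyond the axis. Lpin3 lies beyond the axis in both, Bdh1 and Liph in knock-out alone, and most other members lie between -0.5 and 0.8.

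The genes on chromosomes 12 and 17 shifted as a whole in both edited genotypes. The 541 tested genes on chromosome 12 had a median of -0.52 on the log2 scale in knock-out cells and -0.54 in ΔTAD cells, and the 746 on chromosome 17 of 0.48 and 0.50. Of the members, 4 lie there. Lpin1 on chromosome 12 was 0.13 above its chromosome's median in knock-out and 0.37 above in ΔTAD macrophages, and its 9 tested neighbours within 1 Mb had medians of -0.96 and -0.93. Lpin2 on chromosome 17 differed from its chromosome by -0.14 and 0.02. Ppard differed from it by 0.19 and -0.30, and Plin3 by 0.18 and -0.66. The part of these shifts in the 4 results was not tested beyond this. Without these members, 12 were higher and 9 lower in knock-out, and 24 higher and 8 lower in ΔTAD compared to wild-type macrophages.

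**Figure D4:**
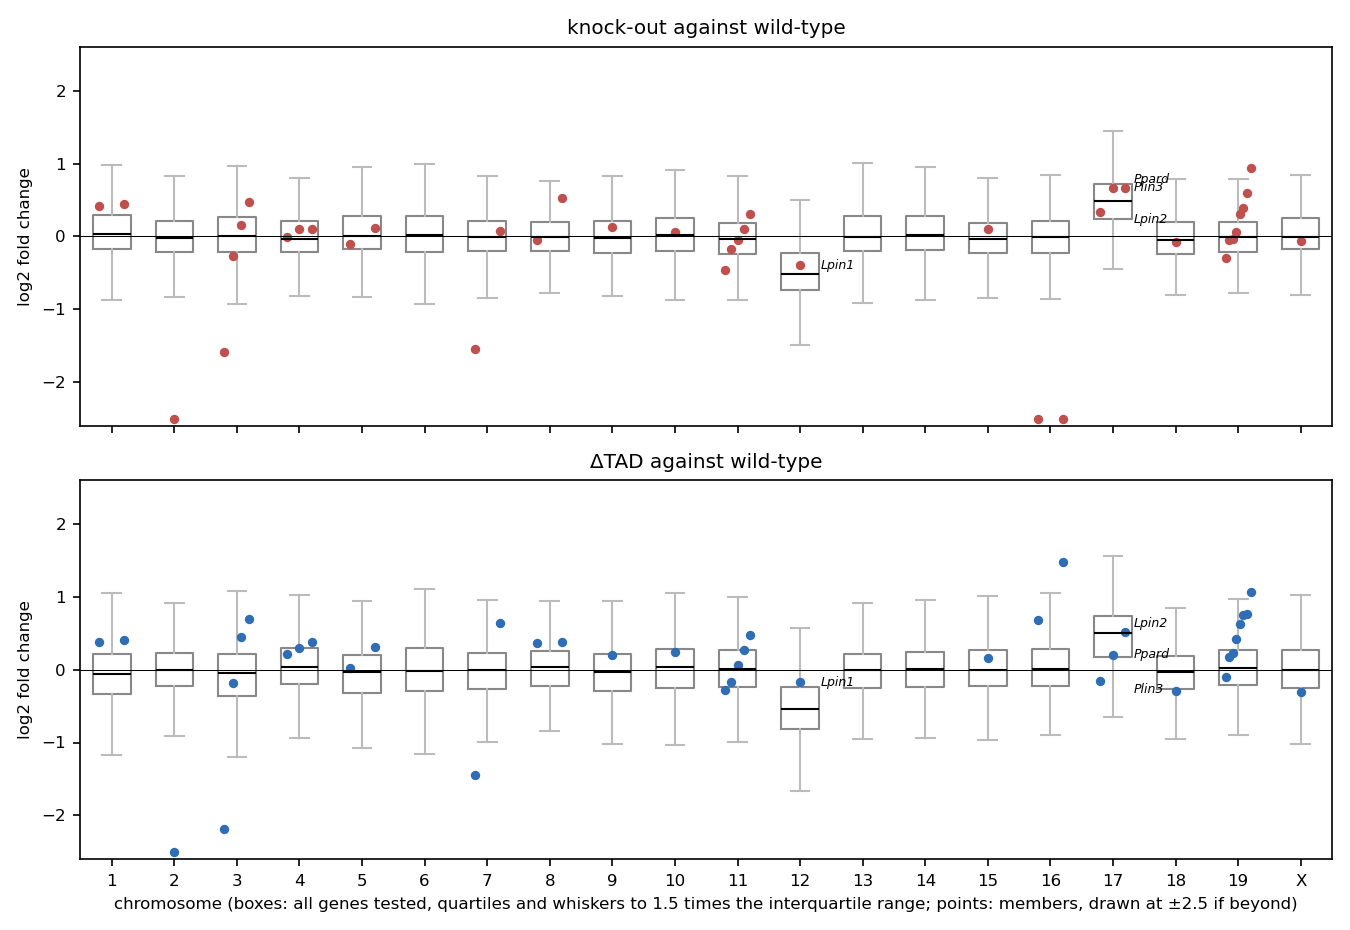
Log2 fold changes of all tested genes by chromosome (boxes) with the members as points, for knock-out and ΔTAD against wild-type macrophages. The boxes of chromosome 12 are centred at -0.52 and -0.54 and those of chromosome 17 at 0.48 and 0.50, and Lpin1, Lpin2, Ppard and Plin3 are the members there.

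The other strongly changed members lie on chromosomes whose median was near 0. Tested neighbours of Lpin3 within 1 Mb numbered 6, with medians of -0.06 in both edited genotypes. Those of Fabp4 had medians of 0.01 and 0.02, those of Liph of -0.04 and -0.10, and those of Bdh1 of -0.03 and -0.05. The 8 neighbours of Lipa had a median of 0.91 in knock-out cells and 0.08 in ΔTAD cells. Whether the Lipa difference is shared with its surroundings in knock-out macrophages was not tested.

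A second list held 117 further genes of fatty acid, ketone body and triglyceride metabolism that are no members, of which 83 were tested. Of these, 31 were higher and 15 lower in knock-out, and 50 were higher and 13 lower in ΔTAD compared to wild-type macrophages. Between the edited genotypes, 5 (6.02%) were higher and 44 (53.0%) lower in knock-out than in ΔTAD macrophages. Of all tested genes, 13.9% were higher and 19.1% lower in that comparison. The count of lower related genes fell with library size alone, as given further on. Median log2 fold changes of the 83 related genes were 0.02, 0.22 and -0.18 in the 3 comparisons, beside 0.07, 0.25 and -0.17 for the members. Of the 30 tested genes of mitochondrial and peroxisomal oxidation on this list, 21 were higher and 4 lower in ΔTAD, and 10 were higher and 5 lower in knock-out compared to wild-type macrophages. Of all tested genes, 26.3% were higher and 23.4% lower in ΔTAD, and 22.8% were higher and 22.4% lower in knock-out macrophages. The corresponding shares of the 30 oxidation genes were 70% and 13.3% in ΔTAD and 33.3% and 16.7% in knock-out macrophages, and those of all 83 related genes were 60.2% and 15.7%, and 37.3% and 18.1%. In knock-out the shares were thus closer to those of all tested genes.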

How the data were processed

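RNA from 9 libraries of unstimulated RAW264.7 macrophages was analysed, 3 per genotype, grouped by the genotype labels. After ribosomal RNA depletion, the authors sequenced single reads. Trimming was done with Trimmomatic, alignment to GRCm38 with HISAT2 and counting on Ensembl genes with HTSeq. The deposited values are raw counts per gene, with no normalization. The strand setting and mode of counting are not given in the sources used here, so overlapping, antisense and paralogous genes are uncertain. Tally lines that name no gene, 46.8% to 53.3% of the records of a library, were left out. Symbols and positions were taken from GENCODE (GRCm38).

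The analysis used edgeR 4.0.16 under R 4.3.3. Low genes were removed with filterByExpr (minimum count 10, minimum total count 15). Libraries were scaled by TMM (factors 0.888 to 1.03) and fitted in 1 quasi-likelihood model with a mean per genotype. Adjusted p stands for the quasi-likelihood F test with Benjamini-Hochberg correction over all 14312 tested genes, and genes under 0.01 were called. SE was computed as |log2 fold change| over the root of F. Where a group had very few counts, ratios of depth-scaled summed counts are given with exact 95% counting intervals, since the fitted fold change then depends on the prior count. Library sizes limit precision, in that 3 counts correspond to 0.143 to 0.210 CPM. The code was checked on data simulated from the fitted model, with 200 genes changed by at least 1 on the log2 scale. No call in the wrong direction was a condition for the run to continue. Smaller changes, as in most members, were not simulated, so this check does not bear on those calls.

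The members and all lists were chosen with earlier results of these data known. Values in every library are given for the lipins, Bdh1, Liph, members called with at least a 2-fold change and members called in opposite directions. Alternatives were DESeq2 1.42.0, other scalings, no filter, only the 2 genotypes compared, a replicate block, other thresholds, leaving out members on chromosomes 12 and 17, and leaving out each library. The library size without CT010467.1, and all alternatives for the related genes, were chosen after seeing the data. Motifs were searched in the 250 bases before RefSeq starts. Of the windows shown, up to 30 bases inside a GENCODE gene were trimmed. Where more lay inside, as for Liph, only the 30 bases around the matches are shown.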

Additional observations from a re-analysis of the deposited data

Results flagged for a closer look

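Bdh1 and Liph were singled out because the edited genotypes moved in opposite directions from wild-type, and because the direct comparison of these genotypes was significant. For knock-out against ΔTAD macrophages the fitted log2 fold change was -9.67 for Bdh1 and -8.00 for Liph, with all 3 knock-out libraries below all 3 ΔTAD libraries. These fitted values rest on 1 and 3 knock-out counts and depend on the prior count. Adjusted p was 2.96e-19 and 4.96e-18 by edgeR's quasi-likelihood F test, Benjamini-Hochberg adjusted. Being called in this comparison was part of the rule that singled the genes out, so these values give no further support. Both genes are on a list that the study drew from these libraries.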

How the results depend on the processing

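Of the alternatives, a required change of at least 1 on the log2 scale in either direction left 0 members higher and 5 lower in knock-out and 2 higher and 3 lower in ΔTAD compared to wild-type macrophages, and 0 higher and 3 lower in knock-out against ΔTAD macrophages. For the related genes it left 5 higher and 4 lower, 8 higher and 4 lower, and 1 higher and 3 lower. With library size alone, 9 members and 20 related genes were lower in knock-out than in ΔTAD macrophages. An adjusted p under 0.05 gave 8 related genes higher in that comparison. The other 213 counts stayed within 1.5 times their main value. The replicate block gave 14 members higher and 10 lower, 25 higher and 8 lower, and 5 higher and 23 lower in the 3 comparisons. Deviations from the genotype mean had correlations of -0.0717 to 0.0200 between same-numbered libraries. Between differently numbered libraries the correlations were -0.0547 to 0.0810. These values show no pairing by number but cannot exclude it.

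Dgat2 in knock-out against ΔTAD macrophages, which was not called, ranged from -0.34 to 0.13 when single libraries were left out and changed sign without knock-out replicate 1 (0.04) or ΔTAD replicate 3 (0.13). Calls between the edited genotypes were the least stable. That of Acly was lost in 13 alternatives, of Lpin1 in 9, of Fabp4 in 7 and of Lipa in 6. Compared to wild-type, Ppard was lost in 11 and Gpam in 7 in ΔTAD, and Hadha in 9 in knock-out macrophages. The causes were not tested.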

Other observations

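Among the related genes, several had larger changes than most members. Fabp3, the heart-type fatty acid binding protein, was at 0.711 ± 0.119 CPM in wild-type, 5.88 ± 0.488 in knock-out cells and 4.20 ± 0.265 in ΔTAD cells (SD, n = 3). Elovl4, which makes very long polyunsaturated chains, was at 5.68 ± 1.01 CPM in wild-type, with 303 counts, and held 1 count in the knock-out and 8 in the ΔTAD libraries. Hacd1, a dehydratase of the elongation cycle, fell from 7.19 ± 0.520 CPM to 0.644 ± 0.197 in knock-out cells and 1.43 ± 0.499 in ΔTAD cells. Its relative Hacd4 rose from 3.39 ± 0.649 CPM to 9.43 ± 0.910 and 11.8 ± 0.228.

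Genes of acyl-CoA handling also differed. Acss2, which makes acetyl-CoA from acetate, was 0.33 higher in knock-out and 1.19 higher in ΔTAD macrophages on the log2 scale. Mlycd, which degrades malonyl-CoA, was higher by 1.16 and 1.01, and Acox3, a peroxisomal oxidase, by 0.60 and 1.08. Acsf3, a mitochondrial malonyl-CoA synthetase, was lower by 1.19 in knock-out cells and by 0.25 in ΔTAD cells. Fads3 was called in ΔTAD macrophages (2.86) and Scd4 in both (1.57 and 1.71), all at under 3 CPM. Bdh2 was lower in both, with log2 fold changes of -0.93 and -1.20, and Gpat3 in knock-out, with -1.82. Agpat4, on chromosome 17, was higher by 1.27 and 1.07. Acot1, on chromosome 12, was lower by 0.64 in knock-out cells and 2.85 in ΔTAD cells, and it has a near-identical neighbour in Acot2.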
